A study of Mus musculus with 19 samples.

Results

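The ALS genes of proteostasis and cytoskeleton described here are 9 genes, Sod1, Vcp, Optn, Tbk1, Sqstm1, Ubqln2, Nek1, Pfn1 and Vapb, each linked to familial amyotrophic lateral sclerosis (ALS), the degeneration of upper and lower motor neurons. They were taken by symbol from a table of 50559 gene rows, a rule that uses no measured value, though they were chosen with earlier results of these data known. All 9 were found, and all 9 passed the filter on low counts that kept 15572 genes for testing.

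The data are RNA-seq of ribosome-bound mRNA from spinal cord cholinergic neurons of wild-type mice. The animals were C57BL/6J ChAT-Cre;RiboTag fx/+ males of 10 weeks, kept in 12 h of light and 12 h of dark, and every library used here came from this one genotype. RiboTag is a floxed allele that puts a hemagglutinin (HA) epitope on a ribosomal protein wherever Cre is made, and ChAT-Cre makes Cre in cells that express choline acetyltransferase, so that the tag marks all cholinergic cells of the cord, lower motor neurons and cholinergic interneurons alike. Immunoprecipitates (IPs) were taken at Zeitgeber time (ZT, hours after lights on) 0, 4, 8, 12, 16 and 20 with 3 replicates at each, and 1 further library held pooled input, the homogenate before precipitation.

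A motor neuron keeps its proteins in order through a few linked systems. VCP is an ATPase that pulls ubiquitin-tagged proteins out of membranes and complexes, and ubiquilin 2 carries tagged proteins to the proteasome. SQSTM1 (p62) and optineurin hand tagged cargo to the autophagosome and are phosphorylated by the kinase TBK1. SOD1 is the cytosolic copper-zinc superoxide dismutase, profilin 1 delivers actin monomers to growing filaments in the axon, VAPB is a membrane protein of the endoplasmic reticulum that tethers it to other organelles, and NEK1 is a kinase of the primary cilium and of the DNA damage response.

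The IPs held between 6302150 and 22406844 counts, with the input inside this range, and the 9 genes together took 0.312% to 0.36% of an IP library. The typical coefficient of variation between replicates was 19.2%. Of 7 markers of cholinergic neurons 6 were enriched at least 2-fold in the mean with every IP above input, and the exception was Chat, whose mean was 3.12-fold that of the input with 17 of 18 IPs above it. The 7 oligodendrocyte, 6 astrocyte and 6 microglia markers were all depleted. Among the libraries, replicate 2 of ZT8 stood apart, with the highest score on the first principal component (42.6, on an axis that took 52.8% of the variance) and the lowest mean log2 CPM over the 7 cholinergic markers (6.70, against 7.06 to 7.85 in the other libraries, CPM being the count scaled to library size).

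Of the 9 genes, 4 passed the edgeR test between some pair of time points and 5 did not pass it in any of the 15 pairs. The p values were adjusted over all genes within each pair, not over the 15 pairs. Sod1 and Pfn1 passed in 1 pair each, by edgeR adjusted p of 0.0480 and 0.0487. These calls held in 4 and 2 of the 18 fits that left out 1 library. Without replicate 2 of ZT8 only Sqstm1 passed in any pair. Sqstm1 was low at ZT4 and ZT8 and high at ZT16 and ZT0, Vapb and Sod1 were high at ZT8, and Pfn1 was low at ZT8. Over all genes tested, 21.4% passed in at least 1 of the 15 pairs. The plot of levels by Zeitgeber time gives every library.

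**Figure D1:**
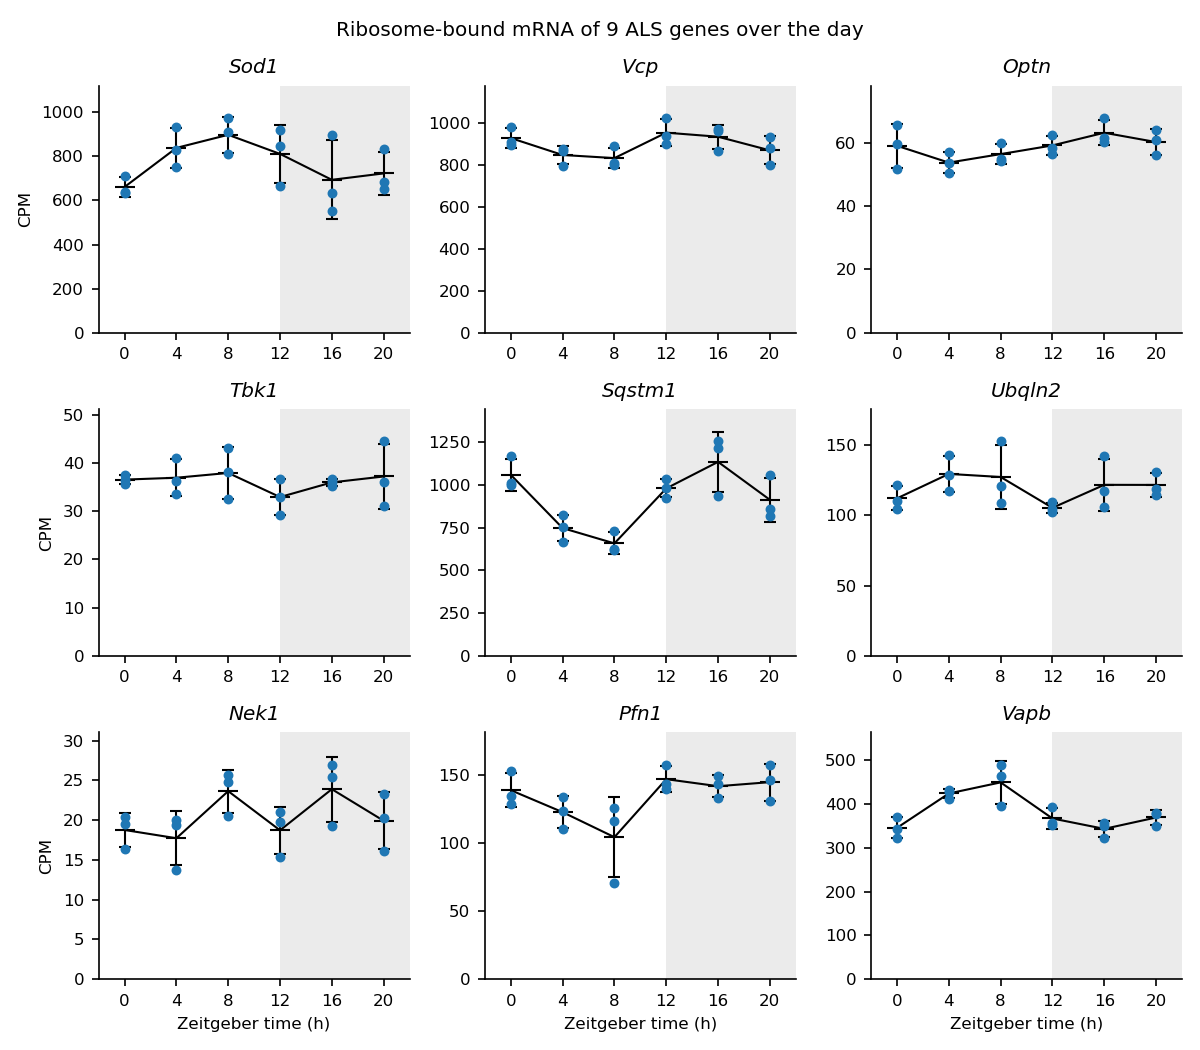
CPM (count scaled to library size, linear axis from 0) of the 9 genes against Zeitgeber time in hours; each point is 1 IP library, the line joins the means of 3 replicates, bars are 1 SD and grey marks the dark phase. Sqstm1 reached its lowest mean at ZT8 and its highest at ZT16, Vapb and Sod1 had their highest mean at ZT8, and Pfn1 had its lowest.

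The DNA just before the transcription start of the 3 genes that passed the test between ZT8 and ZT0 is shown so that the letters the circadian factors are known to read can be looked for in them. The sequences are RefSeq promoter sequences on GRCm38.p6, given 5′ to 3′ in the sense of the gene. Each is the longest stretch free of annotated exons within the 250 bases before the annotated start. This left Sqstm1 with 62 bases, Sod1 with 242 and Vapb with 190. Sod1's window lies at chr16:90220512-90220753 (plus strand), that of Sqstm1 at chr11:50210828-50210889 (minus strand) and that of Vapb at chr2:173737321-173737510 (plus strand). Capitals mark GC boxes (GGGCGG or its reverse complement) and, in Sod1, one match to TGACNNNGC, the core of the antioxidant response element.
Sod1: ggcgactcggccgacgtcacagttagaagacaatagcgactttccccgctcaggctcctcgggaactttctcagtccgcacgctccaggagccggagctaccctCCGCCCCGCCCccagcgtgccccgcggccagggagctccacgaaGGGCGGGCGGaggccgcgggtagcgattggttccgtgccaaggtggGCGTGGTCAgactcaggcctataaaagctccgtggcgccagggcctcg
Sqstm1: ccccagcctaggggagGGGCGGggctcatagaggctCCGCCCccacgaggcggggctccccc
Vapb: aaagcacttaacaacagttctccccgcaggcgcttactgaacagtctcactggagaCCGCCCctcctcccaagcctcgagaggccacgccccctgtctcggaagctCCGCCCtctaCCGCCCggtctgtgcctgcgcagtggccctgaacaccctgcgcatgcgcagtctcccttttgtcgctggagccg

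RefSeq windows were at hand for 7 of the 9 genes (all but Ubqln2 and Nek1), and motifs were counted on both strands over the 250 bases before the start in these and in all 32851 windows. None of the 7 held the E-box CACGTG that CLOCK and BMAL1 bind, present in 6.02% of all windows. None held the D-box TTATGTAA (0.819% of all windows) or AGGTCA, the core of the site of REV-ERB and ROR (14.0%). The absence says only that these letters are not in these windows. GC boxes were found in 6 of the 7, against 32.7% of all windows, with 4 in Sod1, 3 each in Sqstm1, Vapb and Tbk1, 2 in Pfn1 and 1 in Optn. One of those of Sqstm1 reaches into the bases left out above, so the sequence shown marks only the others. The share of G and C ran from 50.0% (Optn) to 68.4% (Tbk1) in the 7 windows. It was not counted for all windows, so the GC boxes were not compared at like base content. TGACNNNGC was found in Sod1 and Vcp, against 10.2% of all windows.

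Sqstm1, on the minus strand of chromosome 11 (GRCm38, 50199366 to 50210827, 8 exons in the principal transcript), encodes the autophagy receptor p62. The 3 libraries of ZT0 gave CPM of 1167, 999 and 1009, those of ZT4 gave 752, 668 and 822, and those of ZT8 gave 731, 617 and 625. It was 926, 980.1 and 1032 CPM in the ZT12 libraries, 1254, 1215 and 934 in those of ZT16, and 1059, 859.9 and 819 in those of ZT20. All 6 libraries of ZT4 and ZT8 lay below all 6 of ZT0 and ZT12, and the means ran from 658 ± 63.9 (SD, n = 3) at ZT8 to 1134.5 ± 175 at ZT16, a 1.72-fold range. How many of all genes split these libraries in the same way was not counted.

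From ZT0 to ZT8 Sqstm1 fell by 0.69 on the log2 scale (SE 0.12, adjusted p = 0.00519 by edgeR's quasi-likelihood test with Benjamini-Hochberg adjustment over all genes), and from ZT8 to ZT16 it rose by 0.79 (SE 0.12, adjusted p = 0.00462). The groups did not overlap in either comparison, as was so for 34.7% and 27.2% of all genes. Both calls held when any 1 of the 18 IP libraries was left out. Sqstm1 differed among the 6 time points (adjusted p = 0.0145), and among single libraries left out only replicate 3 of ZT8 lost this call (adjusted p = 0.0584). When all libraries of 1 replicate number were left out, the calls could be lost. The highest edgeR adjusted p was then 0.0891 from ZT0 to ZT8, 0.393 from ZT8 to ZT16 and 0.631 among time points. A 24-h cosine fitted Sqstm1 with an amplitude of 0.32 in log2 units and a peak at ZT18.3 (adjusted p = 0.0409), and this call held in 8 of the 18 fits that left out 1 library. Sqstm1 and Vapb were the only members past the threshold in that fit, which called 6.24% of all genes, and in the test among time points, which called 6.74%.

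Vapb lies on chromosome 2 (173737511 to 173784336, plus strand, 6 exons) and encodes the tether of the endoplasmic reticulum. In CPM the ZT0 libraries held 343, 371 and 323, the ZT4 libraries 412, 428 and 433, and the ZT8 libraries 395, 490.1 and 463. The ZT12 libraries held 394, 351 and 356, the ZT16 libraries 357, 323 and 350.0, and the ZT20 libraries 350.0, 378 and 379. Every library of ZT4 and ZT8 exceeded every library of the other 4 time points, by a narrow margin between 395 (ZT8) and 394 (ZT12). The share of all genes with such a split was not counted. The time points of the high Vapb values were those of the low Sqstm1 values.

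Between ZT0 and ZT8 Vapb rose by 0.38 in log2 units (SE 0.09, adjusted p = 0.0104), and between ZT8 and ZT16 it fell by 0.39 (SE 0.09, adjusted p = 0.0098). The first call held in 14 and the second in 16 of the 18 fits that left out 1 library, and both were lost without replicate 2 of ZT8 (adjusted p = 0.0833 and 0.0765). The first was also lost without replicate 1 of ZT0 (0.0513), replicate 3 of ZT0 (0.0544) or replicate 3 of ZT8 (0.0510), and the second without replicate 2 of ZT16 (0.0696). The cosine peaked at ZT6.54 with a log2 amplitude of 0.17 (adjusted p = 0.0449, held in 6 of 18 fits), and the test among time points gave an adjusted p of 0.0348 (held in 7 of 18).

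Sod1 (chromosome 16, 90220754 to 90226329, plus strand, 5 exons) encodes the superoxide dismutase in which ALS mutations are best known. Its libraries read 634, 712 and 637 CPM for ZT0, 753, 828 and 934 for ZT4, and 812, 973 and 909 for ZT8. They read 848, 919.7 and 666 for ZT12, 635, 550.0 and 895 for ZT16, and 652, 683 and 833 for ZT20. The libraries of ZT0 lay below those of ZT4 and ZT8, whereas those of ZT12 and ZT16 were spread over most of the range. Between ZT0 and ZT8, 34.7% of all genes had no overlap, and for ZT4 this was not counted. Sod1 was 0.44 higher in log2 units at ZT8 than at ZT0 (SE 0.15, adjusted p = 0.0480), a call that held in 4 of 18 fits without 1 library and had adjusted p values from just over the threshold to 0.197 in the other 14. Without replicate 2 of ZT8 the difference was 0.37 (adjusted p = 0.197). Sod1 did not pass the test from ZT8 to ZT16 (log2 change of -0.37, SE 0.15, adjusted p = 0.0943), where replicate 3 of ZT16, at 895, was within the ZT8 range. Its cosine had an amplitude of 0.20 and an adjusted p of 0.0945.

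Pfn1 (chromosome 11, 70651850 to 70654644, minus strand, 3 exons) encodes profilin 1. It stood at 135, 153 and 129 CPM in the libraries of ZT0, 134, 111 and 124 in those of ZT4, and 126, 71.1 and 116 in those of ZT8. The libraries of ZT12 gave 158, 144 and 139.8, those of ZT16 149, 133 and 143, and those of ZT20 158, 146 and 131. The 3 ZT8 libraries lay below all libraries of ZT0, ZT12, ZT16 and ZT20, and replicate 2 of ZT8 was far below the others. Genes with ZT8 apart from all of these time points were not counted. Pfn1 rose by 0.44 from ZT8 to ZT16 (SE 0.15, adjusted p = 0.0487), a call that held in 2 of the 18 fits without 1 library, with adjusted p values from 0.0509 to 0.255 in the other 16. Without replicate 2 of ZT8 the change was 0.23 (adjusted p = 0.255). From ZT0 to ZT8 its log2 change was -0.41 (SE 0.15, adjusted p = 0.0626 by edgeR), a difference that DESeq2 called (-0.40, adjusted p = 0.0452). DESeq2 called 3334 of 15572 genes in that comparison and left 1513 without an adjusted p.

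The 5 other genes did not pass the test in any pair. Vcp (chromosome 4, 42979963 to 43000507, minus strand), the segregase, had its highest mean, 953 ± 62.9 CPM, at ZT12 and its lowest, 832 ± 49.3, at ZT8, and the 18 libraries ran from 796 to 1022. Vcp had the lowest coefficient of variation of the 9 over all IPs (7.45%, against 21.2% for Sqstm1), and it was the member whose counts were not whole numbers, which RSEM gives where reads are shared between genes. Optn (chromosome 2, 5020642 to 5064051, minus strand), the autophagy receptor optineurin, lay between 50.4 and 67.7 CPM, with the highest mean at ZT16. Tbk1 (chromosome 10, 121546455 to 121586787, minus strand) lay between 29.2 and 44.5 CPM and its time point means between 32.9 and 37.9. The adjusted p among time points was 0.405 for Vcp, 0.635 for Optn and 0.881 for Tbk1.

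Ubqln2 (chromosome X, 153498227 to 153501570, plus strand), a gene of a single exon that encodes ubiquilin 2, lay between 102 and 153 CPM. Its 3 ZT12 libraries, at 109, 104 and 102, lay below the 3 of ZT4 and of ZT20, and the log2 change from ZT4 to ZT12 was -0.30 (SE 0.13, adjusted p = 0.516). In both of these pairs edgeR called 0 of all genes. The share of all genes whose groups did not overlap was counted only for ZT8 against ZT0, ZT16 and ZT20, where it was 20.9% to 34.7%. Groups that do not overlap were thus common. Nek1 (chromosome 8, 60993195 to 61131346, plus strand) was the least abundant of the 9 at 13.8 to 27.0 CPM and had the largest spread within time points (coefficient of variation 15.8%). Its adjusted p among time points was 0.326. A p that misses the threshold does not show that these genes were level over the day. At the standard errors of the fit, 0.09 to 0.18 in log2 units between 2 time points, small changes were not detectable.

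**Figure D2:**
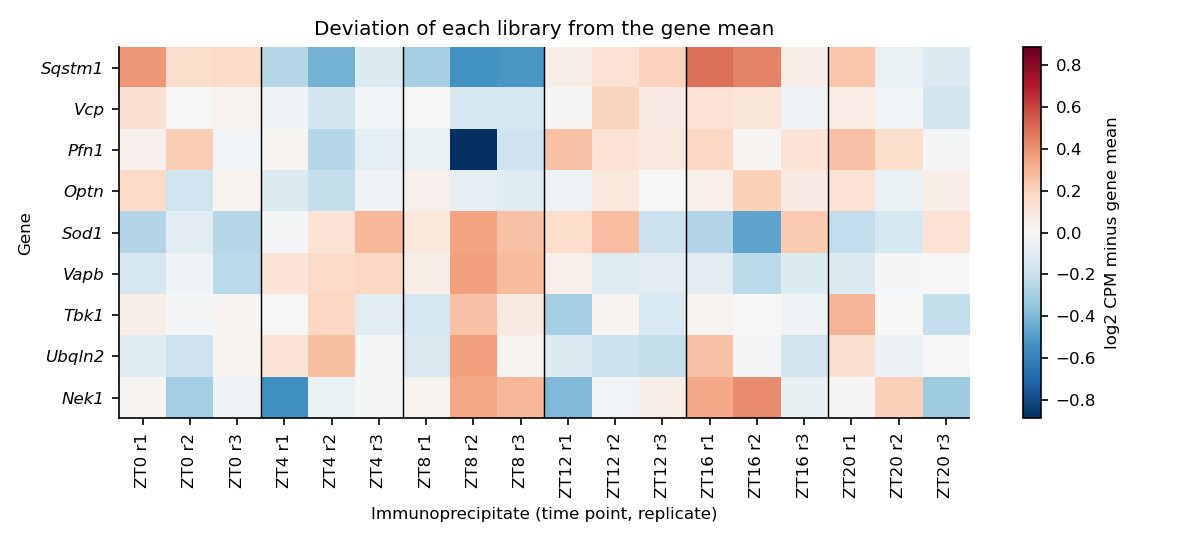
Log2 CPM of each gene (rows) in each of the 18 IP libraries (columns, by time point and replicate) minus the mean of the gene over the libraries; red is above and blue below that mean. Sqstm1 and Pfn1 were low and Vapb and Sod1 high in the ZT8 libraries, and replicate 2 of ZT8 held the most extreme value, for Pfn1.

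For rhythm, JTK_Cycle, a rank test against cosine-like templates with periods of 20, 24 and 28 h, called 0 of the 9 genes after adjustment over all genes (0.0385% of all genes were called). The exact p of the best template, corrected within the gene for the 18 templates but not over genes, was under 0.05 for 2 of the 9 and for 15.9% of all genes. These were Sqstm1 (exact p = 0.00192, adjusted over all genes 0.0944, best peak at ZT16) and Vapb (exact p = 0.00512, adjusted over all genes 0.114, best peak at ZT6). Both had 20 h, the shortest period offered, as the best one. In the edgeR cosine fit, Sod1 and Pfn1 also had an unadjusted p under 0.05 but not an adjusted one (0.0945 and 0.140), with peaks at ZT8.10 and ZT18.2. Of these 4 genes, Vapb and Sod1 had their fitted peak in the light phase and Sqstm1 and Pfn1 in the dark phase.

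Between ZT0 and ZT8, 3 members passed the test, Sod1 and Vapb higher and Sqstm1 lower at ZT8, when 8.95% of all genes were higher and 9.02% lower (18% in all). At an unadjusted p under 0.05 there were 4 members and 31.6% of all genes. The median log2 change of the 9 was 0.05, against 0.00 over all genes. The groups did not overlap for 6 members, against the 34.7% of all genes. Between ZT8 and ZT16, 3 passed, Sqstm1 and Pfn1 higher and Vapb lower at ZT16, when 9.11% of all genes were higher and 7.8% lower (16.9% in all), and 4 members and 31% of all genes had an unadjusted p under 0.05. Here the groups of 4 members did not overlap, against 27.2% of all genes. Of the 13 other pairs, ZT12 against ZT0 called 0.0321% and ZT16 against ZT4 0.0642% of all genes, and 0 members passed in any of the 13 by edgeR. The comparisons of ZT8 with ZT0, ZT16 and ZT20 share the ZT8 libraries, so the mirrored directions in the plot of changes are not independent of one another.

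Between ZT8 and ZT20 edgeR called 0 members and 0% of all genes, although 3 members and 22.3% of all genes had an unadjusted p under 0.05. The log2 changes were 0.47 for Sqstm1 (SE 0.12, adjusted p = 0.0685), 0.47 for Pfn1 (SE 0.15, adjusted p = 0.0894) and -0.28 for Vapb (SE 0.09, adjusted p = 0.0924). The ZT20 and ZT8 libraries of all 3 did not overlap, as was so for 20.9% of all genes. DESeq2 called all 3 (adjusted p = 0.0139 for Sqstm1, 0.0377 for Pfn1 and 0.0395 for Vapb). It called 1114 genes in all, out of 15572, of which 4530 were left without an adjusted p.

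**Figure D3:**
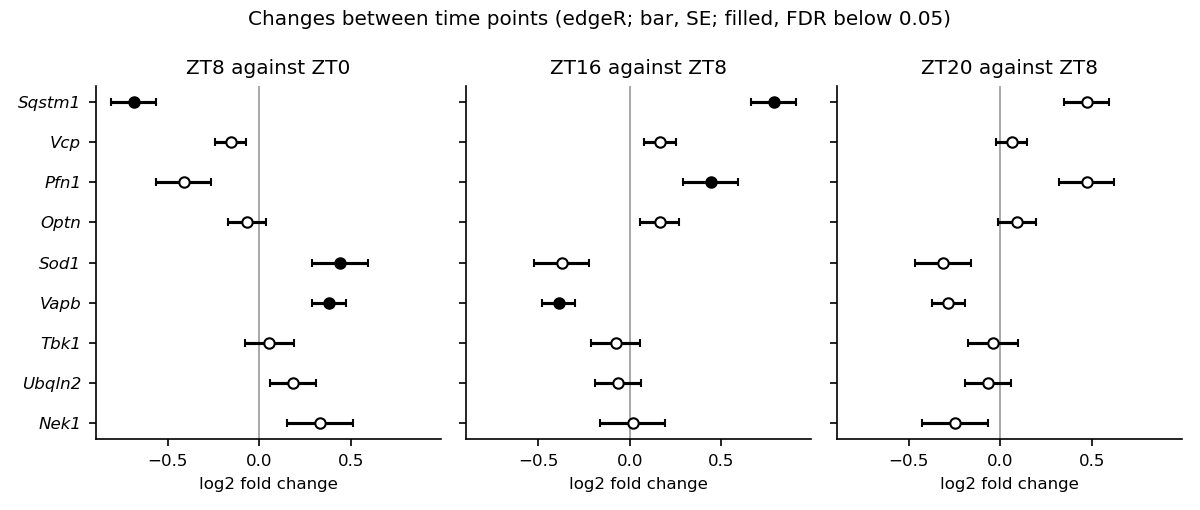
Log2 fold change of the 9 genes (rows) from the edgeR fit in 3 comparisons that share the ZT8 libraries; bars are 1 SE and filled points passed an adjusted p of 0.05. Filled points are Sqstm1, Sod1 and Vapb for ZT8 against ZT0 and Sqstm1, Pfn1 and Vapb for ZT16 against ZT8, with none for ZT20 against ZT8.

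Ordering the time points of a gene by their means gave 45 neighbouring pairs over the 9 genes. The ranges of the neighbours overlapped in 44 of the 45, the exception being Vapb, whose ZT4 libraries (412 to 433) lay above those of ZT20 (350.0 to 379), and 0 of the 45 passed the edgeR test. For ZT4 against ZT20 the share of all genes without overlap was not counted.

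Most of the cholinergic markers moved with these changes. Chat, the enzyme that makes acetylcholine and whose promoter drives the Cre, was 56.1 ± 11.0 CPM at ZT0, 16.9 ± 7.71 at ZT8 and 57.0 ± 29.7 at ZT16, and the vesicular transporter Slc18a3 was 696 ± 101, 367 ± 152 and 708 ± 171. Of the 7 markers, 4 passed the edgeR test as lower at ZT8 than at ZT0, when 9.02% of all genes did. From ZT8 to ZT16, 5 passed as higher, when 9.11% of all genes did. Not all 7 had these directions. Prph, the neurofilament peripherin, went from 2552 ± 220.3 CPM at ZT0 to 3188 ± 158 at ZT8 (log2 0.32, adjusted p = 0.0508), and to 2788 ± 409 at ZT16. Its ZT0 and ZT8 libraries did not overlap, as was so for 34.7% of all genes. The motor neuron factor Mnx1 stood at 26.8, 28.7 and 27.1 CPM. The summed level of the 7, most of it Prph and so opposed to the falling markers, ran from 4329 to 4785 CPM at ZT0, 4205 to 4679 at ZT8 and 4618 to 5026 at ZT16, so that these ranges overlapped. Across the 18 IPs the mean log2 level of the 7 markers had a Pearson correlation of 0.89 with Sqstm1, 0.78 with Vcp, 0.76 with Pfn1, -0.87 with Vapb and -0.87 with Sod1. With Tbk1 and Nek1 it was -0.15 and 0.08. Without replicate 2 of ZT8, left out after the plot was seen, the value for Pfn1 was 0.57 over 17 libraries, and those for Sqstm1, Vcp, Vapb and Sod1 were 0.88, 0.77, -0.81 and -0.87. The first principal component, which took 52.8% of the variance, had correlations of similar size with the same genes. They were -0.92 with Sqstm1, -0.78 with Vcp, -0.71 with Pfn1, 0.93 with Vapb and 0.88 with Sod1. The relation to the markers is thus not set apart from this main axis of the libraries. All of these are descriptions over libraries that share time points and scaling. In bulk libraries a change in the number of tagged cells recovered and a change in RNA per cell cannot be told apart, and the part of the marker level in the changes of the 4 genes was not tested.

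**Figure D4:**
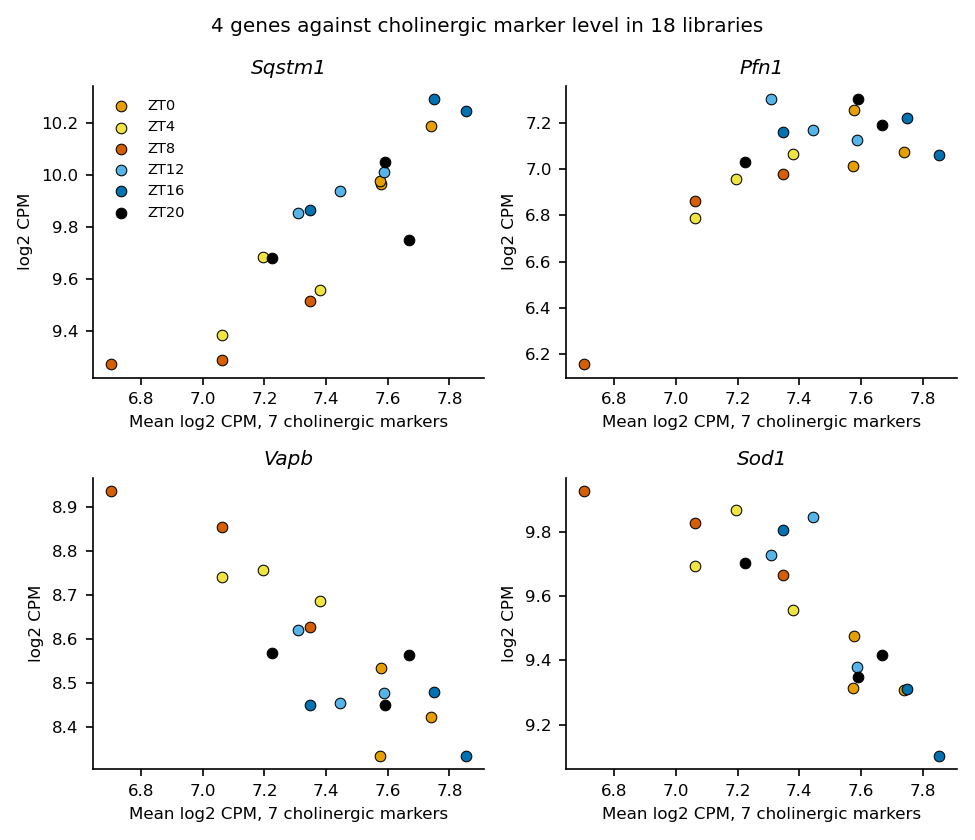
Log2 CPM of Sqstm1, Pfn1, Vapb and Sod1 against the mean log2 CPM of 7 cholinergic markers in the 18 IP libraries, coloured by time point. Sqstm1 was higher and Vapb and Sod1 lower in libraries with more marker RNA, the relation for Pfn1 was weaker without replicate 2 of ZT8 (0.57), and that library stood at the left end with a marker level of 6.70.

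Markers of other cells were read in the same way. Over the 18 IPs, oligodendrocyte markers correlated with Sod1 at 0.45, with Sqstm1 at -0.04 and with Ubqln2 at -0.49. Inhibitory neuron markers correlated with Sod1 at -0.72, with Vapb at -0.73, with Sqstm1 at 0.57 and with Pfn1 at 0.50. Excitatory neuron markers correlated with Pfn1 at -0.66, with Sqstm1 at -0.57 and with Vapb at 0.42. For astrocyte markers the values were 0.50 with Sqstm1 and with Optn and -0.52 with Vapb. For microglia and endothelial markers they lay within -0.35 and 0.29 for all 9 genes. The summed oligodendrocyte level ran from 1808 to 2196 CPM at ZT0, 1720 to 1981 at ZT8 and 1935 to 2863 at ZT16. Of these 7 markers at most 1 was called in the comparisons of ZT8 with ZT0, ZT16 and ZT20, which called 18%, 16.9% and 0% of all genes. Of 4 markers of inhibitory neurons, 2 passed as lower at ZT8 than at ZT0 (9.02% of all genes did), with a list median of -0.44. Of 5 microglia markers tested 1 passed as higher (8.95% of all genes did). Their part in the results was not tested. The library total had a correlation between -0.42 (Pfn1) and 0.20 (Nek1) with the members.

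The members also varied together or against each other. Sqstm1 correlated across the 18 IPs with Vcp (Pearson r = 0.84), Pfn1 (0.68) and Optn (0.67), and Sod1 with Vapb (0.73). Sqstm1 ran against Vapb (-0.89) and Sod1 (-0.74). Tbk1 and Ubqln2 correlated with each other (0.63), and Tbk1, the kinase of SQSTM1 and optineurin, showed r of -0.14 with Sqstm1 and -0.06 with Optn. The median over the 36 pairs was -0.07. Pairs of members were not set against pairs of other genes.

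Over all genes tested, the closest to Sod1 were Atp5h, a subunit of the mitochondrial ATP synthase, and Park7, the redox protein DJ-1 (r = 0.98 with each, n = 18). The closest to Sqstm1 were Sncg, gamma-synuclein, and Pcx, pyruvate carboxylase (0.97 with each). For Vapb they were Dynll2, a dynein light chain (0.97), and Dlst, an enzyme of the tricarboxylic acid cycle (0.96). Optn was closest to Calcoco1, a relative of autophagy receptors (0.82), and Tnip1 (0.81). For Vcp they were Ankrd35 (0.92) and Vars (0.88), for Pfn1 Pdzd11 and Phb2 (0.93 with each), for Tbk1 Hus1 (0.86) and 9430097D07Rik (0.84), for Ubqln2 Gpcpd1 (0.84) and Pdpk1 (0.82), and for Nek1 Nmt1 (0.76) and Plk2 (0.75). The best of all genes tested was picked in each case, which raises these values.

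Against the pooled input, 4 of the 9 genes were enriched in the IPs at least 2-fold in the mean with every IP above input, a rule that 13.8% of the 17901 genes compared met. Sod1 had 779.5 ± 128 CPM in the 18 IPs and 168 in the input (exact Poisson 95% interval 162 to 174, which covers counting error only), a 4.64-fold ratio, and its libraries ran from 1.74 to 2.55 in log2 ratio. The ratio was 3.16-fold for Vcp, 2.26-fold for Optn and 2.20-fold for Sqstm1, whose libraries ran from 0.57 to 1.59. Vapb came close with 1.93-fold and all 18 IPs above input.

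Tbk1 (1.44-fold, 18 of 18 IPs above input) and Pfn1 (1.40-fold, 17 of 18, the exception being replicate 2 of ZT8) lay above input by less than 2-fold. Nek1 stood at 0.905-fold with 5 of 18 IPs above, and Ubqln2 was the member with every IP below input (0.728-fold). Depletion by at least 2-fold, which 23% of the genes compared met, was seen for 0 members. With library totals in place of TMM scaling the median of all genes moved from -0.08 to -0.41 in log2 ratio, and Sod1 and Vcp were the 2 genes left above 2-fold. The input was 1 library, so none of these ratios has a test. All ratios compare ribosome-bound with total RNA of all cells.

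**Figure D5:**
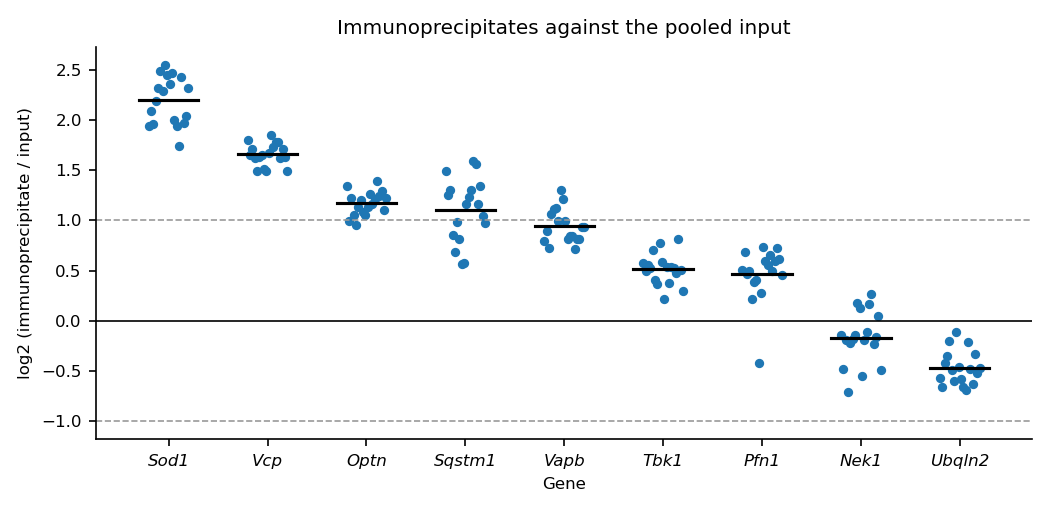
Log2 ratio of each of 18 IP libraries to the pooled input for the 9 genes, ordered by mean; short lines are means of the log2 ratios, the solid line marks no difference and the dashed lines 2-fold. Sod1, Vcp, Optn, Sqstm1, Vapb and Tbk1 lay above the input in every library, and Ubqln2 below it in every library.

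Levels of different genes were compared per kilobase of the principal transcript. Sod1 led with 1203 ± 200 CPM per kb (SD over 18 IPs), ahead of Sqstm1 (449 ± 95.2), Vcp (269 ± 20.1) and Pfn1 (155 ± 23.8). Vapb followed with 54.5 ± 6.64, Ubqln2 with 35.8 ± 4.37, Optn with 22.4 ± 1.81, Tbk1 with 12.0 ± 1.28 and Nek1 with 3.79 ± 0.684. The IP ranges of Sod1, Sqstm1 and Vcp were 858 to 1518, 303 to 616 and 240.2 to 308, so only the neighbours Sqstm1 and Vcp overlapped. The order rests on the transcript chosen: with the union of all annotated exons, which holds retained introns, Sqstm1 (273) led Sod1 (194) and Vcp (184).

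The relatives of the members differed from them in level. Per kilobase, Pfn2, the profilin of neurons, stood at 361 CPM per kb against 155 for Pfn1, and Ubqln1 at 93.3 against 35.8 for Ubqln2 and 43.3 for Ubqln4. Vapb exceeded Vapa (36.5), and Sod1 exceeded mitochondrial Sod2 (27.1). By union exon length Pfn2 over Pfn1, Ubqln1 over Ubqln2, Vapb over Vapa and Sod1 over Sod2 kept this order, whereas Ubqln4 (34.7) fell just under Ubqln2 (35.8).

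Pfn2 rose by 0.61 from ZT0 to ZT8 (SE 0.14, adjusted p = 0.00791) and fell by 0.56 from ZT8 to ZT16 (SE 0.14, adjusted p = 0.0111), whereas Pfn1 had log2 changes of the opposite sign, -0.41 and 0.44. Ubqln1 rose by 0.46 at ZT8 over ZT0 (adjusted p = 0.015) and fell by 0.45 at ZT16 (adjusted p = 0.0175), and Ubqln4 fell by 0.29 from ZT8 to ZT16 (adjusted p = 0.0287). Ubqln2 had 0.18 and -0.07 in the same comparisons, neither past the threshold. Sod2 (0.28, adjusted p = 0.0508) and Vapa (-0.22, adjusted p = 0.119) did not pass from ZT0 to ZT8. Whether a relative differed from its member was not tested.

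Among partners of SQSTM1 and optineurin in selective autophagy (18 genes of receptors and ATG8 proteins), 6 passed from ZT0 to ZT8. Of these, 2 were higher and 4 lower, with a list median of -0.16 (all genes 0.00), when 18% of all genes passed. Nbr1, the receptor closest to p62, fell by 0.48 (SE 0.13, adjusted p = 0.0193), and the ATG8 genes Map1lc3b and Gabarapl1, which coat the autophagosome, fell by 0.55 and 0.54 (adjusted p = 0.0120 and 0.0191). Keap1 and Bnip3 were higher, by 0.31 (adjusted p = 0.0443) and 0.41 (adjusted p = 0.0497). From ZT8 to ZT16, 5 passed, all higher, when 16.9% of all genes passed. Among the 5 were Nbr1 (0.59, adjusted p = 0.00894), Map1lc3b (0.57, adjusted p = 0.0107) and Calcoco1 (0.52, adjusted p = 0.0229). Nbr1 and Map1lc3b thus had the direction of Sqstm1 in both comparisons. For this and the other lists, calls were not followed in the fits that left out libraries. Both comparisons hold the ZT8 libraries, of which replicate 2 stood apart. Of 15 TBK1 partners tested, 2 passed in each, the kinase Chuk higher at ZT8 than at ZT0 (0.69, adjusted p = 0.0140) and lower at ZT16 than at ZT8 (-0.59, adjusted p = 0.0310), and the adaptor Tbkbp1 the reverse (-0.57, adjusted p = 0.0292, and 0.52, adjusted p = 0.0449).

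Among 25 VCP cofactors and genes of endoplasmic reticulum-associated degradation, 7 passed from ZT0 to ZT8, when 18% of all genes did. Ubxn1 (0.53, adjusted p = 0.00974), the deubiquitinase Atxn3 (0.72, adjusted p = 0.0169) and Selenos (0.73, adjusted p = 0.0252) were among the 5 higher, and Faf1 (-0.65, adjusted p = 0.0108) was among the 2 lower. Going on to ZT16, 3 passed (16.9% of all genes did), with Faf1 (0.62, adjusted p = 0.0140) among the 2 higher and Derl1 (-0.37, adjusted p = 0.0185) lower. Of 16 ubiquilins, shuttle factors and chaperones tested, 7 passed from ZT0 to ZT8. The ubiquitin-activating enzyme Uba1 fell from 249.8 to 102 CPM (log2 -1.29, SE 0.25, adjusted p = 0.00567) and the chaperone Hspa8 fell by 0.52 (adjusted p = 0.00619), whereas the ligase Stub1 (0.85, adjusted p = 0.00713) and the proteasome ubiquitin receptor Psmd4 (0.45, adjusted p = 0.0227) rose. At ZT16 against ZT8, 9 passed, with Uba1 and Hspa8 higher (1.42 and 0.48, adjusted p = 0.00576 and 0.00858) and Stub1 lower (-0.78, adjusted p = 0.00922).

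Around SOD1, 9 of 13 genes of superoxide and copper handling passed from ZT0 to ZT8, 7 of them higher (18% of all genes passed). The list median was 0.46 (all genes 0.00). Gpx4, the glutathione peroxidase of lipids, rose by 0.69 (SE 0.18, adjusted p = 0.0145), and the peroxiredoxins Prdx2 and Prdx1 by 0.53 and 0.52 (adjusted p = 0.0167 and 0.0177). Catalase (Cat) fell by 0.79 (SE 0.20, adjusted p = 0.0115) and the copper importer Slc31a1 by 0.64 (adjusted p = 0.0241). From ZT8 to ZT16, 5 passed (16.9% of all genes did), with Gpx1, Prdx2 and Gpx4 lower (-0.46, -0.47 and -0.57, adjusted p = 0.0210, 0.0292 and 0.0348) and Cat higher (0.70, adjusted p = 0.0210). The ZT8 and ZT16 libraries overlapped for Prdx2, Cat and Gpx4 (842 to 1213 CPM at ZT8, 543 to 921 at ZT16). Those of Gpx1 did not overlap, as was so for 27.2% of all genes. Gpx4, Prdx2 and Prdx1 had the direction of Sod1 from ZT0 to ZT8, and Cat the opposite one.

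Around PFN1, 8 of 23 actin genes tested passed from ZT0 to ZT8, 6 of them higher, when 18% of all genes passed. Tmsb4x, which holds actin monomers, rose from 428 to 850.2 CPM (log2 0.99, SE 0.24, adjusted p = 0.00966) and the actin-severing Dstn by 0.44 (adjusted p = 0.0225), whereas Arpc2 of the Arp2/3 complex fell by 0.77 (SE 0.18, adjusted p = 0.00888) and Cap1 by 0.40 (adjusted p = 0.0149). At ZT16 against ZT8, 6 passed (16.9% of all genes did), with Arpc2 higher (0.78, adjusted p = 0.00898) and Tmsb4x (-0.98, adjusted p = 0.0107) and Actr2 (-0.39, adjusted p = 0.0210) among the 5 lower. The libraries of Tmsb4x overlapped (539.6 to 1109.5 CPM at ZT8, 305.8 to 577.2 at ZT16), and those of Arpc2 and Actr2 did not. Around VAPB, 4 of 21 genes of the VAP family and its contact partners passed from ZT0 to ZT8 (18% of all genes did). The ceramide transporter Cert1 rose by 0.48 (adjusted p = 0.00926), and the oxysterol-binding relatives Osbpl9, Osbpl2 and Osbpl1a fell by 0.59, 0.79 and 0.56 (adjusted p = 0.00843, 0.0147 and 0.0176). From ZT8 to ZT16 the same 4 genes passed in the opposite direction, by -0.55, 0.60, 0.88 and 0.48 (adjusted p = 0.00705, 0.00868, 0.0098 and 0.0396). Cert1 had the direction of Vapb in both comparisons, and these 3 oxysterol-binding genes the opposite one.

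Of 9 NEK kinases and ciliary partners tested, 0 passed in either comparison by edgeR. In each, 2 had an unadjusted p under 0.05, against 31.6% (ZT0 to ZT8) and 31% (ZT8 to ZT16) of all genes. Of 21 further ALS genes, 6 passed from ZT0 to ZT8, 1 of them higher, when 18% of all genes passed. The co-chaperone Dnajc7 rose by 0.48 (SE 0.11, adjusted p = 0.00899), the kinesin Kif5a fell by 0.43 (SE 0.11, adjusted p = 0.0155), the neurofilament Nefm fell by 0.41 (SE 0.11, adjusted p = 0.0169) and the phosphatase gene Fig4 by 1.67 (SE 0.43, adjusted p = 0.0132). From ZT8 to ZT16, 7 passed (16.9% of all genes did), 6 of them higher, including Kif5a (0.49, adjusted p = 0.00922), Nefl (0.40, adjusted p = 0.00937) and Nefm (0.47, adjusted p = 0.00981). Dnajc7 was lower (-0.49, adjusted p = 0.00896). From ZT8 to ZT20, 0 genes of any list passed by edgeR, as was so of all genes. At an unadjusted p under 0.05 the lists of partners held from 1 of 9 (NEK kinases) to 11 of 16 (ubiquilins and shuttle factors). Over all genes this share was 22.3%.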

How the data were processed

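The authors aligned reads with STAR 2.7.5 to mm10 and quantified genes with RSEM, per the submitters' processing notes; the deposited values are expected counts per gene, not normalized, with 1.9% to 3.68% of rows per library fractional, and were rounded here. All value columns were matched to samples by name. Which annotation release lies behind the gene rows is uncertain, so gene coordinates are those of GENCODE M21 (GRCm38, 1-based), matched by symbol.

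Genes were kept by filterByExpr and scaled by TMM over the 18 IPs in edgeR 4.0.16 (R 4.3.3). One quasi-likelihood fit served all contrasts among the 6 time points and a second fit the 24-h cosine, with Benjamini-Hochberg adjustment over all genes tested at 0.05. JTK_Cycle (exact null, templates at steps of 2 h, Bonferroni within a gene) ran on log2 CPM with a prior count of 2. The scripts were tested on simulated counts. The labels call the replicates biological, and the study's methods describe homogenizing 1 spinal cord at a time. Intervals cover counting error only.

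Input was compared without a test. Lengths are of the longest principal protein-coding transcript, a choice made after the lengths were seen. Named genes are the 9 members, their relatives, the called list genes (at most 3 per list, direction and comparison, by lowest p, of which some are not reported here), the 2 genes most like each member, and markers. The members and lists were chosen with earlier results of these data known. So were the comparisons of ZT8 with ZT0 and of ZT16 with ZT8, which were known to differ in many genes. ZT20 against ZT8 was taken because the study compared these times of day. Replicate numbers were not used to pair libraries across time points in the main fits. Alternatives were other scalings and filters, DESeq2 1.42.0, a replicate block, an oligodendrocyte score as covariate, and leaving out libraries.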

Additional observations from a re-analysis of the deposited data

How the results depend on the processing

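Counts of members called depended on the setting. The 24-h cosine called 2, and 1 with library totals, with a replicate block or with the oligodendrocyte score as covariate. The test among time points called 2, and 4 when every gene with at least 1 count was kept. ZT20 against ZT8 called 0, but 2 with that filter and 3 with DESeq2, which called 1114 genes in all and left 4530 without an adjusted p. ZT16 against ZT8 called 3, and 0 when the 2 time points were fitted alone, with fewer samples. JTK_Cycle called 0, and 2 when adjusted within the gene alone, as were 15.9% of all genes. Enrichment over input held for 4 members, and for 2 with library totals. Apart from DESeq2 and JTK_Cycle within the gene, calls over all genes were not counted for the alternative settings. They were also not counted for the fits that left out libraries. More members called under a setting is thus not a result about the members. The causes were not tested.

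Leaving out 1 library, or all libraries of 1 replicate number, gave ranges of called members of 0 to 1 for JTK_Cycle, 0 to 3 for the cosine, 0 to 3 among time points, 0 to 4 for ZT8 against ZT0, 0 to 3 for ZT16 against ZT8, 0 to 3 for ZT20 against ZT8 and 0 to 4 for any pair. Replicate 2 of ZT8, when left out alone, left 1 member (Sqstm1) in any pair. JTK_Cycle called 1 member (Sqstm1) without replicate 3 of ZT16, and ZT20 against ZT8 called 3 without replicate 1 of ZT8 and 1 without replicate 3 of ZT16 or of ZT20.

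Small log2 changes that were never past the threshold turned direction in some of these fits, with ranges of -0.16 to 0.015 for Optn, -0.078 to 0.15 for Tbk1 and -0.029 to 0.28 for Ubqln2 from ZT0 to ZT8, of -0.10 to 0.18 for Nek1, -0.17 to 0.033 for Tbk1 and -0.28 to 0.12 for Ubqln2 from ZT8 to ZT16, and of -0.26 to 0.084 for Tbk1 and -0.21 to 0.13 for Ubqln2 from ZT8 to ZT20.

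Deviations of same-numbered libraries of different time points had correlations from -0.151 to 0.176 (4 of 45 over 0.1). Those of differently numbered libraries ran from -0.21 to 0.183, and 8 of 18 libraries were closest to their own number. The astrocyte marker level was higher in replicate 3 than in replicate 1 at every time point, for example 3.88 against 3.57 at ZT4. The numbers were not read as pairing, but whether same-numbered libraries share a batch was not tested. With the replicate block, 4 members passed from ZT0 to ZT8, 3 from ZT8 to ZT16 and 2 among time points. Depth limits Nek1 most, with 127 to 501 counts in a library.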

Other observations

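Hemoglobin genes, best known from red blood cells, had their highest level at ZT12. The 4 genes Hba-a1, Hba-a2, Hbb-bs and Hbb-bt summed to 598 to 747 CPM at ZT12 and to 208 to 428 CPM at the other time points. All 4 passed the edgeR test among time points, as did 6.74% of all genes. Their mean log2 level had a Pearson correlation of 0.60 with Sod1 and 0.01 with Pfn1 over the 18 IPs.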
